A study of Mus musculus with 16 samples.

Results

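The tissue difference between fat cells and liver was read in wild-type mice alone, by setting the 4 libraries of wild-type adipocytes against the 4 libraries of wild-type liver. These are 8 of the 16 libraries of the series, from 4 of its 8 mice, and both libraries of a pair carry the same mouse in the ending of their titles (wt_1135, wt_1136, wt_1138 and wt_1153). All 4 mice were C57BL/6 males, aged 76 days except mouse wt_1153, aged 70 days, and the labels give them no engineered allele. The adipocyte libraries come from fat cells that collagenase freed from subcutaneous fat and that were extracted with a kit for lipid-rich tissue, and the liver libraries come from whole liver homogenised in TRIzol. RNA integrity numbers were above 6 for adipocytes and above 9 for liver, per the labels. Isolation, extraction and RNA quality thus change together with tissue and cannot be told apart from it here. The other 8 libraries come from mice whose labels state a knockout of Trib1, a pseudokinase gene, specific to adipocytes, and enter only in the last paragraph. The labels name neither the promoter behind the knockout nor the deleted part of the gene. Trib1 stood at 641, 790, 1047 and 1104 CPM (the usual unit of counts scaled to a common library size) in the wild-type adipocytes and at 63.4 to 90.5 CPM in the livers. Its tissue difference was 3.57 on the log2 scale in the wild-type mice and 3.81 in the mice labelled knockout (edgeR adjusted p for the difference between the 2 = 0.58), so its counts do not check the wild-type label.

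Adipocytes store triglyceride in a single large lipid droplet, release fatty acids from it when adrenergic signals arrive and secrete hormones such as leptin and adiponectin. Hepatocytes make most of the proteins of blood plasma, make bile acids and urea, oxidise fatty acids to ketone bodies, release glucose and detoxify foreign compounds. Many steps that both cell types carry out are run by different members of an enzyme family. In these bulk libraries fewer cells of a type and less RNA per cell cannot be told apart.

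The 8 libraries held 30954864 to 46247411 counts assigned to genes, with 37650590 to 44680386 in adipocytes. Between 16248 and 16747 genes had a count in the adipocyte libraries and 15279 to 15861 in the liver libraries. Values of single genes below are CPM on library sizes scaled by the trimmed mean of M-values (TMM), as mean ± SD over 4 mice, and 4 values in a row follow the order of mice wt_1135, wt_1136, wt_1138 and wt_1153. A difference is adipocytes minus liver on the log2 scale ± its standard error, from a fit with the mouse as a block, and a gene counts as higher in a tissue where its Benjamini-Hochberg adjusted p in edgeR was under 0.05. The tissue labels were checked on 24 adipocyte markers and 30 hepatocyte markers. All but 1 of the former were higher in adipocytes and all of the latter in liver, and no library sat with the other tissue. The traces given near the end are of markers chosen as at least 1000-fold apart in these data. Their low level in the other tissue follows from that choice and does not check the labels. The haemoglobin genes Hba-a1, Hba-a2, Hbb-b1 and Hbb-b2 were listed at 0 counts in all 8 libraries, and mitochondrially encoded genes were not analysed here.

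The starting point was the stretch of DNA in front of 4 genes that each tissue transcribes heavily, shown as examples. They are albumin (Alb) and the protease inhibitor Serpina1e for liver, adiponectin (Adipoq) and complement factor D (Cfd, adipsin) for adipocytes. Each line gives the 120 bases before the transcript start in RefSeq on build GRCm38.p6, 5′ to 3′ on the strand of the gene, with matches to the motifs searched in capitals.
Alb: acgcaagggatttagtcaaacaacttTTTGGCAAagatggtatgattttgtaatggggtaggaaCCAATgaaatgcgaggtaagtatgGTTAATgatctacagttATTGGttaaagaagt
Serpina1e: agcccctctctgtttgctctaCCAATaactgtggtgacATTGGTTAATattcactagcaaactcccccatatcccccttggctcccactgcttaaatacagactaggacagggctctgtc
Adipoq: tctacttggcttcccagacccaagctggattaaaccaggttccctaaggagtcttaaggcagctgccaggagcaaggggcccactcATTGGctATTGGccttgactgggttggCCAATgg
Cfd: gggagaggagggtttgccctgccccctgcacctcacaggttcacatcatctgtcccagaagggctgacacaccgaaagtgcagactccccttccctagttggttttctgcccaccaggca
The windows lie at chr5:90460750-90460869 (plus strand) for Alb, chr12:103956898-103957017 (minus strand) for Serpina1e, chr16:23146416-23146535 (plus strand) for Adipoq and chr10:79890733-79890852 (plus strand) for Cfd. Both strands were searched for TATAAA (the TATA motif), CCAAT (bound by NF-Y, among others), GTTAAT (part of the HNF1 motif), CAAAGTCCA (HNF4 motif core) and TTGCNNAA (C/EBP-type). These letters occur in 6.76%, 22.1%, 3.02%, 0.215% and 4.16% of the same window of all 27025 promoters in the table. For Alb the RefSeq start used here lies before the gene start of GENCODE given below, and distances are counted from the former. The Alb window held a C/EBP-type match 94 bases before the start, CCAAT matches at 56 and 15 bases and a GTTAAT match at 32 bases. The Serpina1e window held CCAAT matches at 99 and 82 bases, the latter overlapping a GTTAAT match at 78 bases. The 3 matches in the Adipoq window were CCAAT, at 34, 27 and 7 bases, and the Cfd window held no match, which says only that these letters are not there. The windows searched were those of the 3 genes of highest mean in each tissue among genes at least 1000-fold higher there by the fitted difference. Those of Mup3 in liver and Fosb in adipocytes also held no match and are not printed. Motif shares were not compared between sets of genes, because under 80% of the tested genes (78.7%) could be matched to the promoter table by name.

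Alb, the carrier protein of plasma, stood at 82160, 107615, 105285 and 94240 CPM in the livers and at 37.4, 58.3, 85.6 and 96.4 CPM in the adipocytes. The gene lies at chr5:90460897-90476602 on the plus strand. Serpina1e, which belongs to a family of near-identical copies and whose count is therefore uncertain, ranged from 10299 to 25906 CPM in liver and from 0.0884 to 3.29 CPM in adipocytes. Adipoq, the fat cell hormone adiponectin at chr16:23146536-23158028, stood at 2333, 3076, 3295 and 3496 CPM in adipocytes against 0.400, 0.164, 3.21 and 0.0539 CPM in liver. Cfd, at chr10:79890853-79892655, stood at 10624 to 14839 CPM in adipocytes and at 0.164 to 9.99 CPM in liver. The tissues did not overlap for any of the 4 genes, and for both adipocyte genes the liver of mouse wt_1138 gave the highest of the liver values. Per kilobase of exon, the scale on which genes can be compared, Alb reached 41556 CPM in liver, and Cfd reached 13954 CPM in adipocytes. On that scale the next in adipocytes were Car3 (carbonic anhydrase 3, 7920), Scd1 (stearoyl-CoA desaturase, 5939) and Fabp4 (fatty acid binding, 2888), with Adipoq (2208) in place 8 of 13533 genes of known length and the P450 gene Cyp2e1 (2186) in place 9. In liver they were Apoa2 (an apolipoprotein, 19914), Mup3 (a major urinary protein, 16012) and Apoe (apolipoprotein E, 12353), with Serpina1e (9120) in place 8.

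Liver spread its RNA over fewer genes than adipocytes did. Genes holding 50% of all counts numbered 585, 455, 432 and 424 in the adipocyte libraries and 169, 139, 144 and 153 in the liver libraries. Every adipocyte library needed more genes than every liver library (474 ± 75.2 against 151 ± 13.2, exact 2-sided permutation p = 0.0286, the smallest that 4 against 4 allows). This permutation ignored the pairing of libraries by mouse. The 100 genes with the most counts held 29.2% to 33.1% of the adipocyte counts and 43.4% to 46.3% of the liver counts. The gene with the most counts was Scd1, which makes monounsaturated fatty acids, in the adipocytes of 3 mice and Car3 in those of mouse wt_1136, and it took 3.37% to 4.82% of them. In liver it was Alb, with 6.64% to 8.46%. With the 10 liver genes of highest mean level left out of all libraries, the mean number of genes holding 50% was 491.5 in adipocytes and 319.8 in liver.

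**Figure D1:**
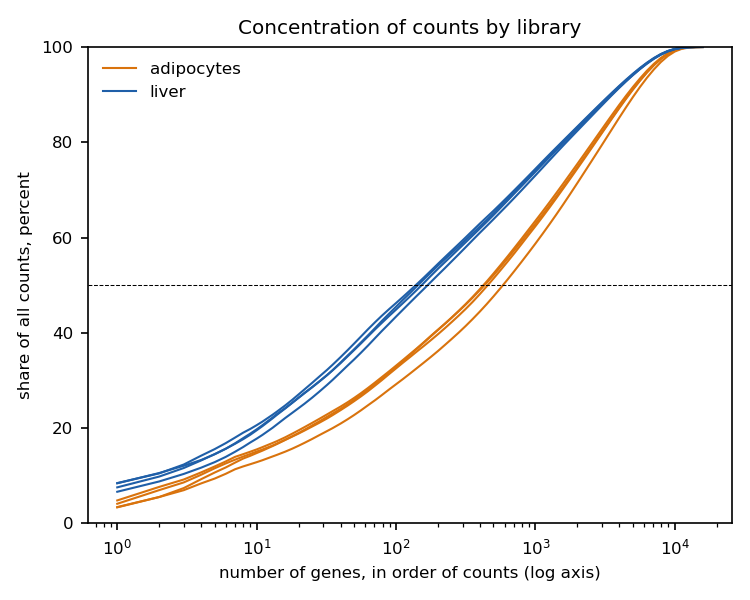
Share of all counts (percent, vertical axis) held by the genes with the most counts, against their number on a log axis, 1 line for each of the 8 libraries (orange for adipocytes, blue for liver). The liver lines run above the adipocyte lines and pass 50% at 139 to 169 genes, the adipocyte lines at 424 to 585.

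Most genes differed between the tissues. Of 14366 genes tested, 10759 passed edgeR's quasi-likelihood test: 5598 were higher in adipocytes (39.0% of the tested genes) and 5161 in liver (35.9%). Counts of gene lists below are to be read beside these shares. At least 4-fold higher were 2424 genes in adipocytes (16.9%) and 1815 in liver (12.6%). By the fitted difference, 103 and 352 were at least 1000-fold higher. These include genes without a count in the other tissue, whose fitted fold is not a lower bound. For Acta1, without a count in liver, the log2 difference was 12.59 in edgeR and 9.91 with voom in limma, the latter under 1000-fold. Tested against a 2-fold difference as the null, 3232 genes passed in adipocytes and 2570 in liver. For 10544 genes (73.4%) the 4 adipocyte values lay wholly above or below the 4 liver values. Among the called genes, 186 had no count in any liver library and 142 none in any adipocyte library. The share of called genes that were higher in adipocytes was 52.0% and depended on the scaling: on library totals alone it was 73.7% (8292 against 2960), since the median difference over all genes moved up by 0.647, from 0.06.

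**Figure D2:**
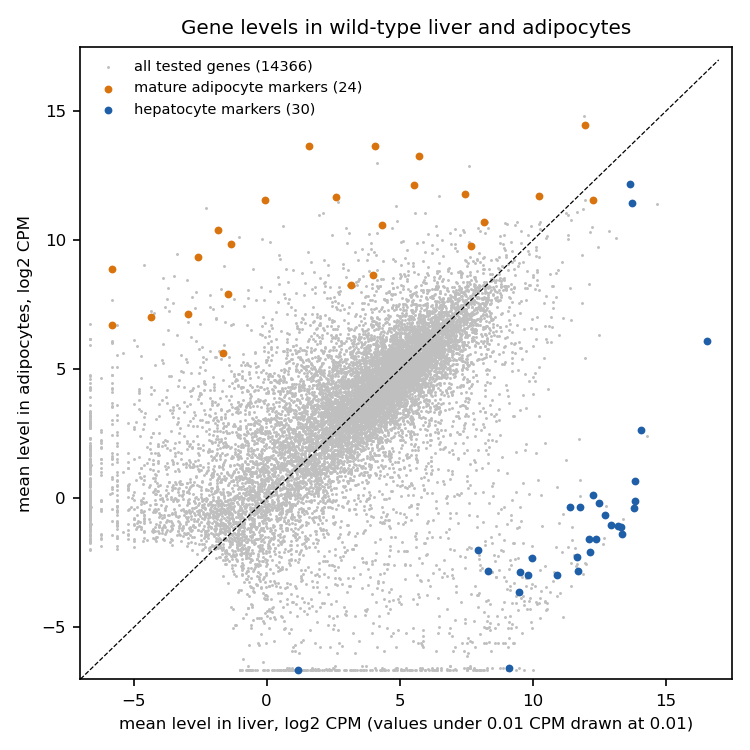
Mean log2 CPM in liver (horizontal) against adipocytes (vertical) for the 14366 tested genes, with 24 adipocyte markers in orange and 30 hepatocyte markers in blue. The markers of each tissue lie on its side of the diagonal, apart from Pck1, which lies near it on the liver side and did not pass the test.

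Markers of the mature adipocyte were higher in adipocytes for 23 of 24 genes, with a median difference of 8.37 against 0.06 over all tested genes. The hormone leptin, Lep, stood at 301, 370, 619 and 607 CPM in adipocytes and had 2 counts in the 4 livers together, both in mouse wt_1138, a ratio of 26434 with a 95% interval for counting error from 4744 to 1044090. Plin1, which coats the lipid droplet, ranged from 1276 to 1526 CPM in adipocytes and from 0 to 1.07 CPM in liver, again highest in mouse wt_1138. Fabp4 was 12966 ± 1850 against 16.8 ± 7.12 CPM (log2 difference 9.67 ± 0.56, edgeR adjusted p = 8.83e-07). The receptor genes of the list also differed: Adrb3, the beta-3 adrenergic receptor, was 4.71 higher and Pparg, the nuclear receptor that drives fat cell formation, was 5.12 ± 0.19 higher. Other enzymes of the list had high levels in both tissues. Car3 was 22690 ± 4765 against 4002 ± 790 CPM, Gpd1 was 2.55 higher and Acsl1, which activates fatty acids, 1.48 higher. Pck1, which feeds glyceroneogenesis in fat and gluconeogenesis in liver, was the exception, at 3046 ± 421 CPM in adipocytes and 4960 ± 1189 CPM in liver with overlapping values (-0.68 ± 0.30, edgeR adjusted p = 0.072; 0.029 without the mouse block).

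Among 19 tested genes for factors that fat cells are known to secrete, 14 were higher in adipocytes and 4 in liver. Besides Lep, Cfd and Adipoq, the list held Retn (resistin), at 717 to 1016 CPM in adipocytes and 0.0539 to 1.36 CPM in liver. The adipocyte values of Lep fell into a lower pair (mice wt_1135 and wt_1136) and a higher pair (wt_1138 and wt_1153). The 4 members higher in liver were angiotensinogen (Agt, 1085 ± 176 against 28.9 ± 7.09 CPM), the retinol carrier Rbp4 (4493 ± 606 against 317 ± 51.5 CPM), Lcn2 and the chemoattractant Rarres2. Both Agt and Rbp4 were present in adipocytes while liver held more.

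**Figure D3:**
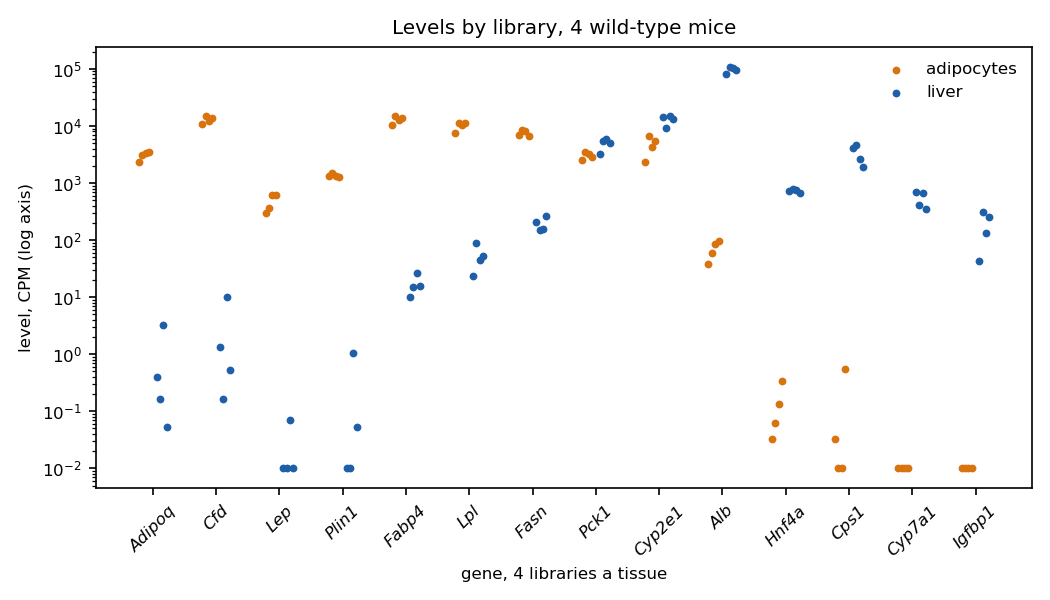
Level in CPM on a log axis (vertical) for 14 genes named in the text, 4 adipocyte libraries in orange and 4 liver libraries in blue, with values under 0.01 CPM drawn at 0.01. For each gene but Pck1 the points of the 2 tissues do not overlap.

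Proteins of the lipid droplet divided between the tissues, with 12 of 21 genes higher in adipocytes and 8 in liver, the latter near the 35.9% of all tested genes. Plin1, Cidec (3299 ± 1007 against 6.12 ± 0.657 CPM) and Cidea, which enlarge droplets, and the lipase genes Pnpla2 and Pnpla3 were higher in adipocytes. Hsd17b13, Fitm1, Cideb and Plin5 were higher in liver. Hsd17b13, a droplet-bound enzyme of the hepatocyte, stood at 363 to 529 CPM in liver and at 0 to 0.333 CPM in adipocytes. Plin2, which coats droplets in most cells, was 292 ± 41.7 against 335 ± 59.1 CPM and did not pass the test (-0.19, and 0.45 on library totals, adjusted p = 0.014). Of 20 genes for lipolysis and its control, 19 were higher in adipocytes and none in liver. They include Lipe (hormone-sensitive lipase, 6.24 higher), the regulatory kinase subunit Prkar2b (1067 ± 227 against 0.876 ± 0.521 CPM) and the receptor genes Ffar2 and Gpr81. Triglyceride synthesis showed 10 of 18 genes higher in adipocytes and 3 in liver. Dgat1 (286 ± 57.9 against 27.3 ± 0.468 CPM), Mogat1 and Agpat9 stood on the adipocyte side, and Lpin2 (558 ± 83.6 CPM in liver against 13.1 ± 1.94), Gyk and Gpat2 on the liver side.

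Of 25 genes for uptake and binding of fatty acids, 11 were higher in adipocytes and 12 in liver, with a median difference of -0.05. The shares of all tested genes were 39.0% and 35.9%, so the even split is not read as particular to this list. Lpl, which frees fatty acids from lipoproteins at the vessel wall, stood at 10018 ± 1815 CPM in adipocytes and 52.6 ± 27.1 CPM in liver. Its relative Lipc stood at 210 ± 27.8 CPM in liver and had 4 counts in the adipocyte libraries together. Fabp1, the fatty acid binding protein of liver, reached 9758 CPM in mouse wt_1153 and 5085 to 5805 CPM in the others, against 0.0442 to 1.08 CPM in adipocytes. Cd36 and Slc27a1 were higher in adipocytes and Slc27a2, Slc27a5 and Fabp2 in liver. Slc27a5, which also activates bile acids, was 971 ± 71.3 CPM in liver and 0.0906 ± 0.0868 CPM in adipocytes.

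Genes of fatty acid synthesis were mostly higher in adipocytes (17 of 24, and 7 in liver), whereas those of cholesterol synthesis were mostly higher in liver (22 of 26, and 2 in adipocytes). Fasn, the fatty acid synthase, was 7538 ± 854 CPM in adipocytes and 195 ± 56.2 CPM in liver (5.31 ± 0.41, edgeR adjusted p = 5.32e-06). Acaca, which makes malonyl-CoA, was 4.09 higher, and Scd1 was 2.96 ± 0.67 higher, at 16839 to 40084 against 2374 to 6432 CPM. In mouse wt_1136 Scd1 had its lowest adipocyte and its highest liver value. Some members that elongate and desaturate fatty acids stood on the other side. Elovl2 was 473 to 876 CPM in liver and 0.0414 to 0.624 CPM in adipocytes, Fads2 was 234 ± 77.3 against 6.53 ± 0.833 CPM, and Fads1 and Elovl3 were also higher in liver, while Fads3 was higher in adipocytes (366 against 20.6 CPM). Of the cholesterol list, Ebp and Tm7sf2, enzymes of the late steps, differed by -3.37 and -4.14. Pmvk and Acat2 were 0.80 and 0.55 higher in adipocytes, and on library totals 18 genes of the list were higher in liver and 4 in adipocytes.

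Genes of fat oxidation and of the respiratory chain differed less, and their direction depended on the scaling. Of 27 genes of fatty acid oxidation, 16 were higher in liver and 2 in adipocytes, but 10 and 9 on library totals. The large differences held under both: Cpt1a, which admits fatty acids to mitochondria, was 597 ± 119 CPM in liver and 30.9 ± 8.58 CPM in adipocytes, and Ppara, a receptor that switches on these genes, was 371 ± 54 against 26.0 ± 1.55 CPM. The microsomal oxidases Cyp4a10 and Cyp4a14 were also higher in liver, Cyp4a14 at 1348 CPM in mouse wt_1138 and 337 to 513 CPM in the others. Of 51 nuclear genes of oxidative phosphorylation, 43 were higher in liver and none in adipocytes (median -0.67), while on library totals 9 were higher in liver and 8 in adipocytes (median -0.02). The citric acid cycle had 9 of 21 genes higher in adipocytes and 7 in liver, near the shares of all tested genes (39.0% and 35.9%). On library totals the counts were 15 and 3. Cs (613 ± 29.3 against 175 ± 17.8 CPM) and Pdha1 (431 ± 33.6 against 84.7 ± 16.8 CPM) stood on the adipocyte side. Ketone bodies are made in liver and used elsewhere, and the list divided by role: Bdh1, of their synthesis, was higher in liver (259 ± 37.1 against 0.148 ± 0.104 CPM), and Oxct1, needed for their use, was 5.85 ± 0.20 higher in adipocytes. Of 17 thermogenic genes 12 were higher in adipocytes and 5 in liver (12 and 3 on library totals), the latter including Elovl3 and Slc27a2. Those higher in adipocytes include Ucp3 (25.5 ± 3.61 CPM), Cox8b (69.4 ± 9.97 CPM) and Otop1. Ucp1, the uncoupling protein of brown fat, stood at 48.1 CPM in mouse wt_1135 and at 7.47, 5.57 and 5.51 CPM in the other adipocytes, and its difference of 6.13 was 4.98 without mouse wt_1135 and 12.54 without mouse wt_1138, whose liver held its only counts there.

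Hepatocyte markers and plasma proteins were higher in liver. All 30 hepatocyte markers were higher in liver, with a median difference of -13.33. The smallest differences among them were those of Cyp2e1, an ethanol-oxidising P450 (2347 to 6764 CPM in adipocytes and 9234 to 14932 CPM in liver, -1.53 ± 0.50, edgeR adjusted p = 0.022), and transferrin, Trf (2790 ± 566 against 13661 ± 2703 CPM). For Cyp2e1 the difference was -0.88 (adjusted p = 0.11) on library totals and did not pass without mouse wt_1135 (-1.17, adjusted p = 0.072) or mouse wt_1138 (-1.42, adjusted p = 0.11). Of 31 genes of coagulation and fibrinolysis, 23 were higher in liver, including the fibrinogen chains Fga, Fgb (4044 to 7467 against 0.0442 to 0.832 CPM) and Fgg, and prothrombin, F2. The 8 higher in adipocytes include F13a1, Thbd, F3, Plat, Plau, Vwf and Tfpi, of which the last 4 were chosen after their values were seen. Complement genes divided 20 to 6 in the same direction. C8a, Mbl2, Hc (complement factor 5) and C4bp led in liver, and Cfd, C7, C5ar1 and Cd55 in adipocytes. Of 22 acute phase genes 15 were higher in liver and 3 in adipocytes. Hamp, the iron hormone hepcidin, was 1422 ± 186 against 0.0642 ± 0.0566 CPM, and Apcs (serum amyloid P) was 68.0 ± 11.6 CPM with no count in adipocytes, at least 1133-fold higher. Steap4, a metalloreductase, Mt2 and Saa3 stood on the adipocyte side. Iron, metal and selenium genes divided 14 in liver to 3 in adipocytes of 21, the latter including the plasma peroxidase Gpx3 (407 ± 78.6 against 4.94 ± 1.44 CPM). Apolipoproteins and lipoprotein genes were higher in liver for 22 of 28, with Apoa1 at 11814 to 16596 CPM, and in adipocytes for 5, among them the sorting receptor Sort1 (587 ± 64.7 against 20.6 ± 5.59 CPM).

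Bile acid genes were higher in liver for 21 of 22. Cyp7a1, the rate-limiting enzyme, stood at 700, 412, 660 and 357 CPM in liver and had no count in adipocytes, at least 8861-fold higher. Akr1d1, a reductase of the same pathway, ranged from 183 to 262 CPM with no count in adipocytes, at least 3779-fold higher. The hepatic uptake carrier Slco1b2 was 1252 ± 255 CPM in liver and 0.0401 ± 0.0343 CPM in adipocytes. The exception was Klb, the co-receptor of FGF hormones, at 37.9 CPM in adipocytes and 31.9 in liver (chosen after its values were seen). It did not pass on TMM scaling and was higher in adipocytes on library totals, as the 1 such gene of the list. Cytochromes P450 of drug metabolism were higher in liver for 28 of 31. Cyp2d10 (1035 ± 201 CPM), Cyp2j5 and Cyp2c54 had no count in adipocytes, and Cyp2c29 was 2266 ± 537 CPM with 8 counts in adipocytes. Counts within the Cyp2c and Cyp2d families are uncertain, since reads may be shared between copies. The 3 members higher in adipocytes were Cyp1a1 (18.1 ± 10.4 against 1.71 ± 1.08 CPM), Cyp4b1 and Cyp1b1. Of 35 conjugating enzymes 29 were higher in liver, with Ugt2a3, Sult1b1 and Sult1d1 among the largest differences, and 3 in adipocytes (Mgst2, Mgst3 and Gstm5). The 18 tested genes of the major urinary proteins and other male-biased liver genes were all higher in liver, and as near-identical copies the Mup counts are uncertain.

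Urea cycle genes were higher in liver for 10 of 12. Cps1, which fixes ammonia, was 1941 to 4571 CPM in liver against 0 to 0.541 CPM in adipocytes, Arg1 was 2895 ± 469 against 0.330 ± 0.353 CPM, and Otc 970 ± 51.8 against 0.0691 ± 0.0388 CPM. Ass1, an enzyme of the same cycle, was only 2.28 ± 0.554 CPM in liver, and its counting in these files is uncertain. The ammonia-binding enzyme Glul (3607 ± 795 against 1184 ± 363 CPM) was higher in adipocytes, and Gls2, the liver glutaminase, was 496 to 998 CPM in liver and 0.201 ± 0.116 CPM in adipocytes. Of 34 genes of amino acid breakdown, 31 were higher in liver. Tat, which starts tyrosine breakdown, stood at 1447 CPM in mouse wt_1135 and at 3623 to 3917 CPM in the other livers. The 2 higher in adipocytes were Mat2a and Bcat2, the latter the first step of branched-chain amino acid use.

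Carbohydrate enzymes divided between the tissues. Of all tested genes 39.0% were higher in adipocytes and 35.9% in liver, and the counts of these lists were not tested against those shares. Of 31 genes of glycolysis and fructose use 14 were higher in adipocytes and 11 in liver (18 and 10 on library totals), and of 19 genes of gluconeogenesis and glycogen 8 and 10 (8 and 7). Hexokinase 2 (Hk2) stood at 271, 294, 436 and 523 CPM in adipocytes and at 0.480 to 2.78 CPM in liver. The insulin-regulated glucose transporter Slc2a4 was 245 ± 34.1 against 0.364 ± 0.144 CPM, and Slc2a2, the liver transporter, 307 ± 62.5 CPM with 12 counts in adipocytes. Pkm, the muscle-type pyruvate kinase, was 393 ± 31.7 against 12.3 ± 1.60 CPM, and Pklr, the liver type, was 148 to 333 CPM with no count in adipocytes, at least 3874-fold higher. Aldoa, an aldolase, stood at 1350 ± 160 CPM in adipocytes and at 166 ± 13.9 CPM in liver. G6pc, which releases free glucose, was 146 to 543 CPM in liver and 0.144 ± 0.048 CPM in adipocytes.

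The ratio of 28 pairs of genes with the same function was compared across libraries, which apart from the prior count of 2 does not depend on how libraries are scaled. In all 28 pairs the 4 adipocyte ratios lay wholly on one side of the 4 liver ratios (exact 2-sided permutation p = 0.0286 for each, the smallest possible). The pairing of libraries by mouse was ignored in this permutation too. Such separation was also found for 73.4% of single genes, and the pairs were chosen with results of these data known, so nothing particular to them is read from the count. In 25 the first-named gene had the larger share in adipocytes. Within a tissue such a ratio also depends on the lengths of both genes, which the difference between tissues does not. In some pairs both genes had counts in adipocytes while 1 of them held nearly all counts in liver. The log2 ratio of Pygb to Pygl, the brain and liver glycogen phosphorylases, was -0.32 ± 0.23 in adipocytes and -7.42 ± 0.61 in liver. For the glycogen synthases Gys1 and Gys2 it was 2.25 ± 0.43 and -7.10 ± 0.43, with Gys2 still at 37.6 ± 15.9 CPM in adipocytes. The nuclear receptors Pparg and Ppara had ratios of 3.58 ± 0.12 and -5.36 ± 0.16. The insulin receptor substrates ran the other way: Irs2 was 487 ± 80.8 CPM in adipocytes and 7.28 ± 4.19 CPM in liver, and Irs1 74.4 ± 15.1 against 29.5 ± 2.58 CPM, so the ratio of Irs1 to Irs2 was 4.88 lower in adipocytes. The adiponectin receptors had a ratio of Adipor1 to Adipor2 of -2.79 ± 0.14 in adipocytes and -1.91 ± 0.17 in liver.

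**Figure D4:**
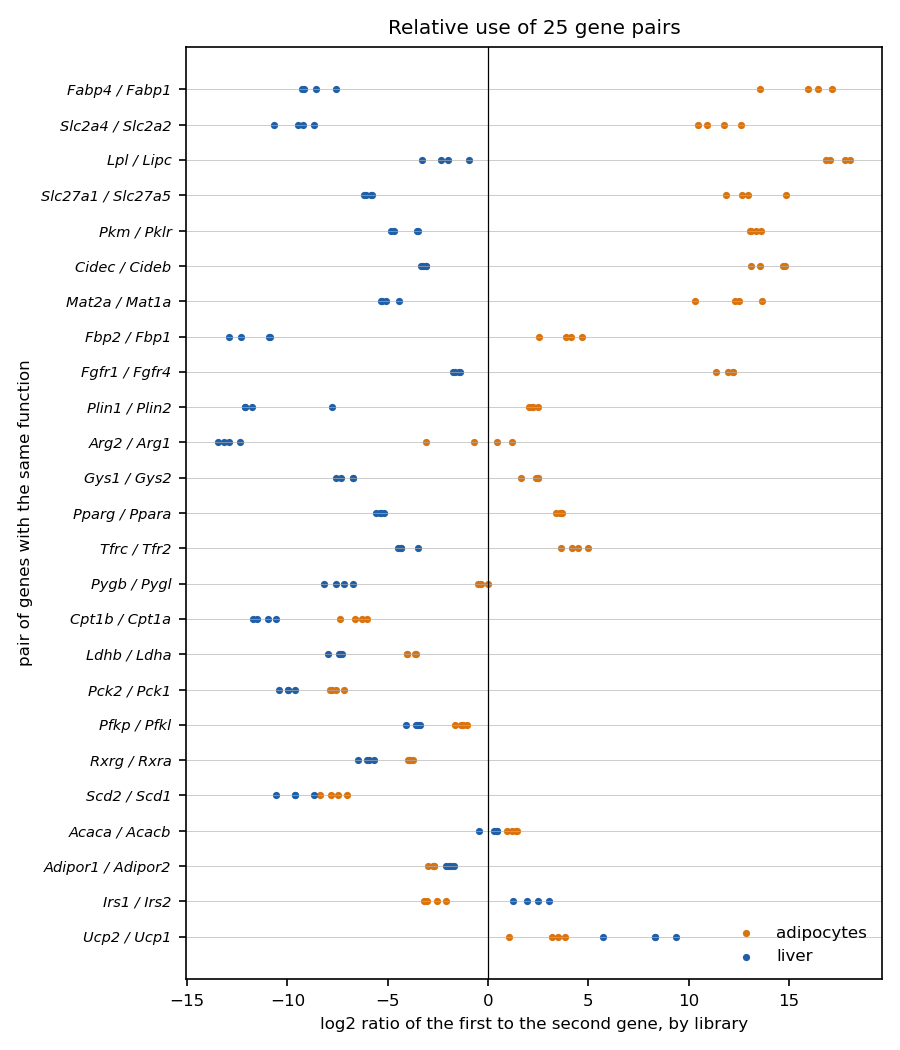
Log2 ratio of the first to the second gene of 25 of the 28 pairs with the same function (horizontal), 4 adipocyte libraries in orange and 4 liver libraries in blue for each pair. The colours do not overlap in any pair drawn, and for 3 pairs (Irs1 and Irs2, Adipor1 and Adipor2, Ucp2 and Ucp1) the liver ratios are the higher ones.

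Transcription factors followed the tissues. Of 25 liver-enriched factors 21 were higher in liver. Hnf4a, a receptor that maintains hepatocyte genes, was 731 ± 49.8 against 0.140 ± 0.135 CPM. Foxa2 and Foxa3 had no count in adipocytes, and Foxa3, at 78.3 ± 11.9 CPM in liver, was at least 1303-fold higher. The 4 higher in adipocytes were Cebpa (659 ± 92.2 against 424 ± 79.4 CPM, which did not pass without mouse wt_1138, adjusted p = 0.063), Gata6, Zhx2 and Bcl6. Bcl6 rested on the mice chosen: the liver of mouse wt_1138 held 108 CPM and the others 17.9 to 42.6 CPM, and the difference of 0.84 (edgeR adjusted p = 0.046) did not pass without mouse wt_1135 (0.70, adjusted p = 0.14), wt_1136 (0.53, adjusted p = 0.21) or wt_1153 (0.78, adjusted p = 0.089), or without the mouse block (0.51, adjusted p = 0.31). Of 28 adipogenic factors 21 were higher in adipocytes and 5 in liver. Ebf1, Ebf2, Zfp423 and Klf4 belonged to the former, and Klf15 (304 against 80.7 CPM), Rxra and Cebpb to the latter, though Cebpb did not pass on library totals (-0.58, adjusted p = 0.057). Tbx15, a factor of subcutaneous fat, was 20.1 ± 4.78 CPM with no count in liver, at least 187-fold higher.

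Hox genes, which record position along the body axis, were mostly higher in adipocytes: 26 of the 27 tested were higher there and none in liver, and 12 of the 39 listed were too low to test. The median of the tested genes was 7.20, or 4.64 with genes uncounted in liver set at their lower bound. Hoxc10 stood at 21.9, 26.5, 23.03 and 27.3 CPM with no count in liver (at least 229-fold higher), and Hoxc8 at 59.3 to 76.4 CPM with 2 counts. Hoxb4 was 1.24 higher, and Hoxa2 did not pass except on library totals (both chosen after their values were seen). Of 18 clock genes 7 were higher in adipocytes, near the 39.0% of all tested genes, and 4 in liver (13 and 3 on library totals). Nfil3 was 3.63 ± 0.24 higher in adipocytes, and Gm129, a repressor of the clock, 2.47 lower.

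Receptors and signalling genes of insulin and adrenaline were higher in adipocytes for 17 of 32 and in liver for 12 (19 and 10 on library totals), the latter near the 35.9% of all tested genes. Fgfr1 (186 against 14.1 CPM) and the adiponectin-binding cadherin Cdh13 stood on the adipocyte side. The glucagon receptor Gcgr, at 357 CPM in liver and 0.140 CPM in adipocytes, stood on the liver side with Igfbp1 and Igfbp2. Igfbp1, a short-lived binding protein that insulin represses, varied among livers, at 43.0, 307, 135 and 253 CPM, and had no count in adipocytes. Of 18 imprinted genes 14 were higher in adipocytes and 2, the non-coding Meg3 and Rian, in liver (16 and 1 on library totals, where Rian did not pass). Nnat stood at 564 to 1368 CPM in adipocytes against 1.09 ± 0.222 CPM in liver. Of 21 cell cycle genes 7 were higher in each tissue, near the shares of all tested genes (39.0% and 35.9%). On library totals 9 were higher in adipocytes and 1 in liver, and without mouse wt_1136 3 were higher in liver. The cell cycle gene most raised in adipocytes was Ccnd2 (219 ± 37.1 against 4.81 ± 0.635 CPM).

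Genes of the early response to stimulation and to tissue dissociation were higher in adipocytes for 25 of 26. Their summed level was 21817 to 28983 CPM of library totals in adipocytes and 463 to 929 in liver. Fosb stood at 2145, 1838, 3166 and 2733 CPM against at most 0.593 CPM, Egr2 at 601 to 856 CPM against at most 0.246 CPM, and Fos at 2891 ± 395 against 1.68, 9.50, 1.68 and 13.1 CPM. The exception was the heat shock gene Hsph1, 27.2 ± 0.937 against 35.0 ± 6.65 CPM, which was lower by 0.35 on TMM scaling and higher by 0.30 on library totals (adjusted p = 0.057), and did not pass without mouse wt_1136 (-0.23) or wt_1138 (-0.32). Chemokines and inflammatory genes with the same direction include Ptx3 (239, 317, 763 and 800 CPM against at most 0.164 CPM), Ccl7 (88.9 to 345 CPM against 2 counts) and Cxcl10 (439 ± 191 against 3.43 ± 0.796 CPM). For these 3 genes the adipocytes of mice wt_1138 and wt_1153 lay above those of wt_1135 and wt_1136. Collagenase was used on fat alone, so its part in these differences cannot be told apart from that of the tissue. Of 25 interferon-stimulated genes 16 were higher in adipocytes and 6 in liver (18 and 2 on library totals), led by Ifi27l2a (1189 ± 139 against 5.54 ± 1.67 CPM) and Gbp2. Antigen presentation genes divided 10 to 2 of 17, with the class I gene H2-Q10 (2822 ± 226 against 122 ± 45.6 CPM) on the liver side.

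Genes listed as markers of other cell types had counts in both tissues. All 18 markers of continuous endothelium were higher in adipocytes, among them Cdh5 (287 ± 129 against 18.3 ± 3.44 CPM) and Cldn5. Their summed level was 4346, 2323, 2795 and 1614 CPM of library totals in adipocytes against 157 to 204 in liver, so mice wt_1135 and wt_1153 differed by over 2-fold. Markers of liver sinusoidal endothelium went the other way for 10 of 12, with Stab2 at 50.03 ± 8.64 against 0.661 ± 0.277 CPM. Macrophage markers were mixed, with 5 of 16 higher in adipocytes and 3 in liver, 8 in liver without mouse wt_1135, and 7 and 1 on library totals. Kupffer cell markers were higher in liver for 8 of 10 and in adipocytes for 2 (5 and 3 on library totals). Their summed level was 435 to 463 CPM of library totals in adipocytes and 365 to 450 in liver. Most of the adipocyte sum came from Id3 (252 against 22.7 CPM in liver) and Nr1h3 (84.7 against 104 CPM). Clec4f (77.9 ± 17.1 CPM in liver) had no count in adipocytes. Vsig4 and Cd5l stood at 0.214 and 0.273 CPM in adipocytes against 24.4 and 49.0 CPM in liver. Lymphocyte markers were higher in adipocytes for 9 of 16, but for 3 without mouse wt_1136, 4 without mouse wt_1135 and 5 without mouse wt_1153. Of the mural cell list 10 of 14 were higher in adipocytes, led by Cspg4 and Mcam, but 8 without mouse wt_1135, wt_1136 or wt_1138. The 2 higher in liver were Abcc9 (29.0 against 15.7 CPM) and Kcnj8 (4.07 against 1.77 CPM), neither of which passed on library totals. Of the fibroblast list 12 of 16 were higher in adipocytes. Of 9 Schwann cell markers 6 were higher in adipocytes. Stellate markers such as Lrat and Hand2 (8 of 11) and cholangiocyte markers (6 of 8) were higher in liver. Of 8 tested muscle markers 4 were higher in adipocytes, among them Acta1 (8.30 to 27.0 CPM, no count in liver) and Myl1 (45.6 ± 7.32 CPM), and 1 in liver, Neb (67.2 against 1.64 CPM), while 11 of 19 were too low to test. Some lists had few testable genes. Granulocyte and mast cell markers divided 4 in adipocytes to 2 in liver of 8, and skin and mammary epithelium 1 to 4 of 6. Red cell markers divided 0 to 2 of 3, pancreas and gut 1 to 3 of 4, and mesothelium 1 to 3 of 4. The 4 epithelial genes higher in liver were Krt8 (261 CPM there), Krt18 (208), Dsp (57.8) and Cdh1 (37.4). Krt5, Krt14, Krt1, Krt15, Lalba, Csn3, Wap and Csn2 of that list were too low to test, with 0 to 2 counts in liver. The mast cell protease Cpa3 stood at 2.08 ± 0.196 CPM in adipocytes with no count in liver, and Alas2, the haem enzyme of red cells, at 145 ± 30.3 CPM in liver and 2.91 ± 1.10 CPM in adipocytes. The part of these cells in the differences above was not tested.

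Extracellular matrix genes were higher in adipocytes for 28 of 36 and in liver for 6. Among the former were the crosslinking enzyme Lox (109 against 0.175 CPM) and the basement membrane genes Col15a1 (290 ± 15.5 against 3.55 ± 1.93 CPM), Lama4 and Nid1 (605 ± 140 against 13.9 ± 1.83 CPM). Which cells of the adipocyte libraries they came from was not tested. On the liver side were the plasma adhesion proteins vitronectin (Vtn, 3404 ± 353 against 5.01 ± 0.486 CPM) and fibronectin (Fn1, 1412 ± 298 against 103 ± 48.0 CPM), and Col18a1 (1118 ± 114 against 72.0 ± 10.8 CPM). Dcn was 0.63 lower in adipocytes (0.0132 higher on library totals) and did not pass without mouse wt_1138 (-0.53, adjusted p = 0.061).

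Genes used in every cell showed small differences whose direction depended on the scaling. Ribosomal protein genes were higher in liver for 39 of 57 and in adipocytes for 3 (2 and 14 on library totals), with 24 in liver without mouse wt_1138. Proteasome genes were higher in liver for 22 of 31 and in adipocytes for none (5 and 10 on library totals), and peroxisome genes for 11 and 3 of 17 (5 and 6). Of 17 common reference genes 5 were higher in each tissue (11 in adipocytes and 2 in liver on library totals), Actb by 1.60 in adipocytes and Gapdh by 0.90 in liver (2.24 higher and 0.25 lower on library totals, the latter not passing).

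**Figure D5:**
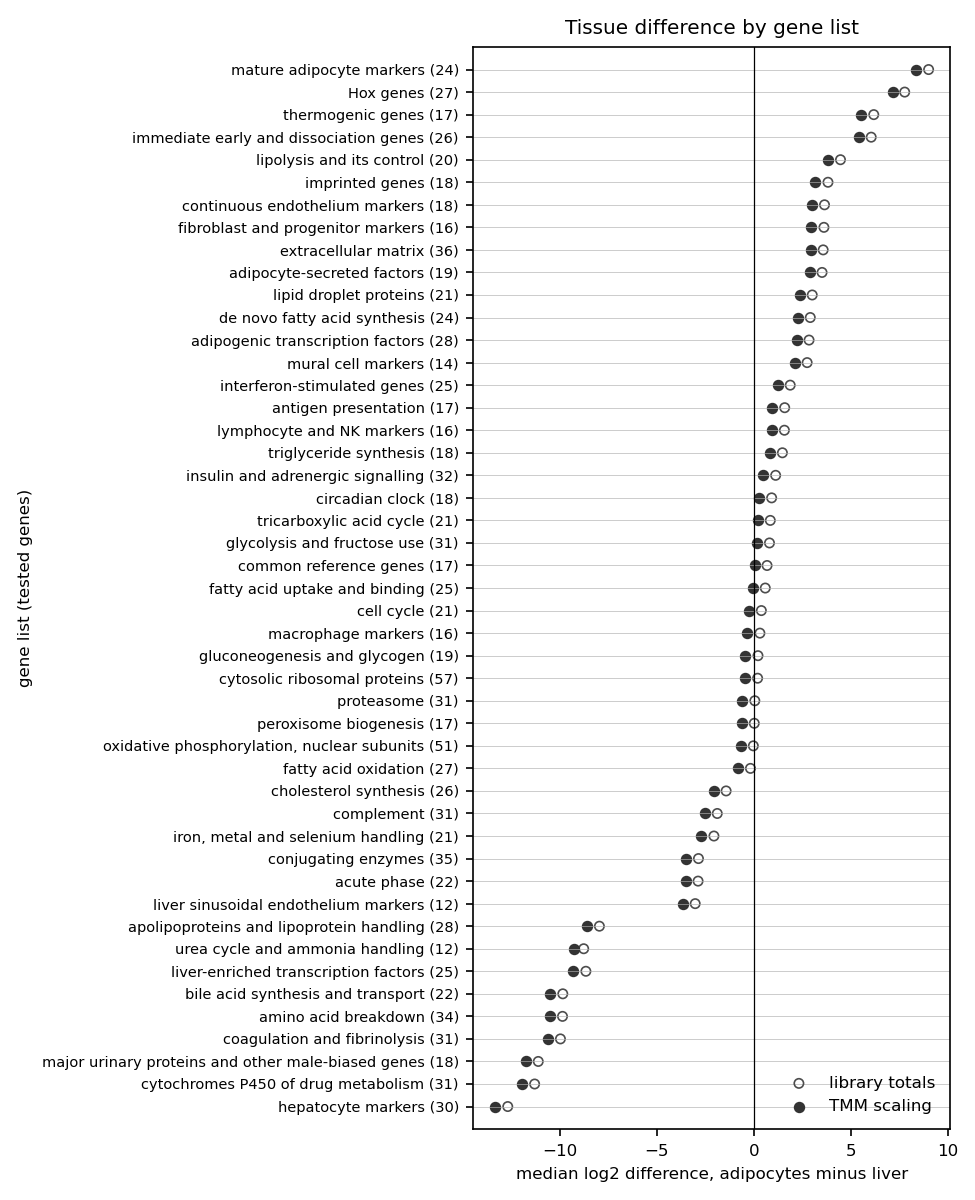
Median log2 difference, adipocytes minus liver, over the tested genes of the 47 lists with at least 12 tested genes (horizontal), on TMM scaling (filled) and library totals (open). Medians run from -13.33 for hepatocyte markers to 8.37 for adipocyte markers, and the open points lie 0.52 to 0.66 to the right, which carries 7 lists near 0 across it.

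Some neighbouring genes on a chromosome were higher in the same tissue. Of the called genes at least 4-fold apart that could be placed on the annotation, 143 of 1703 higher in liver (8.40%) and 103 of 2302 higher in adipocytes (4.47%) lay in 19 and 15 runs of 5 or more consecutive tested genes of the same kind. The longest in liver were the Mup genes on chromosome 4 (14 genes), Cyp2c on chromosome 19 (13), Serpina on chromosome 12 (11) and Ugt2b with sulfotransferases on chromosome 5 (10). In adipocytes they were the Pcdhb and Pcdhg protocadherins on chromosome 18 (17 each), followed by 4 runs of 6 genes: Hoxa genes on chromosome 6, Hoxc genes on chromosome 15, a run with Cd209 genes on chromosome 8 and a run with Pf4 and Cxcl genes on chromosome 5. These families hold near-identical or overlapping copies, for which counts of single members are uncertain.

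Each tissue held traces of markers of the other. Only markers at least 1000-fold apart by the fitted difference were summed, so the sums do not measure how much of the other tissue was present. The 26 hepatocyte markers of that kind summed to 68.0, 87.3, 115 and 160 CPM of library totals in the adipocyte libraries, against a mean of 197397 in liver. The 9 adipocyte markers of that kind summed to 1.62, 0.580, 13.1 and 0.735 CPM in the livers, against 24589 in adipocytes. The adipocytes of mouse wt_1153 and the liver of mouse wt_1138 held the most. The median adipocyte marker in that liver stood at 0.0501% of its adipocyte level, and at 0.000802% to 0.00556% in the other livers. Folds against such near-absent genes moved with single mice: without mouse wt_1138 the difference of Adipoq was 13.91 in place of 12.35 and that of Plin1 15.68 in place of 12.47, and without mouse wt_1153 that of Cps1 was -17.88 in place of -14.64. Spread between mice was alike in both tissues, with a median SD on the log2 scale of 0.165 over adipocytes and 0.180 over livers. Genes of at least 10 CPM with an SD above 1 numbered 11 of 8158 in adipocytes and 38 of 8080 in liver. In liver these included Igfbp1, Onecut1 (5.82 to 33.1 CPM) and Nr0b2 (10.04 to 47.6 CPM), and in adipocytes Ucp1 and Notch3 (4.68 to 28.1 CPM).

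The same tissue difference was measured in the 4 mice labelled knockout, which share no sample with the comparison above. Of 4029 genes at least 4-fold apart in the wild-type mice and tested in both, 3876 were called in the same direction there and 3374 were again at least 4-fold apart, and 20 had the opposite sign. Among all genes called in both, 120 had opposite signs. Counts of some lists also turned. In the mice labelled knockout, interferon-stimulated genes were higher in adipocytes for 9 and in liver for 11. Antigen presentation genes were so for 4 and 7, and lymphocyte markers for 2 and 6. Lists of other kinds moved too: cell cycle genes to 5 and 12, and continuous endothelium markers to 12 and 2. Nuclear genes of oxidative phosphorylation went to 8 and 23, towards adipocytes. In these mice 11175 of 14229 genes were called in either direction, and no turn is read as particular to a list. The change of these counts was not tested. Across the 14019 genes tested in both, the log2 differences had a Pearson r of 0.964, given as a description since genes are not independent replicates. The difference itself changed between genotype labels for 2245 of 14898 genes (edgeR adjusted p). Among genes named above, the wild-type difference of Nnat was 9.80 and that of the mice labelled knockout 5.75 (adjusted p = 0.001), and those of Mup3 were -11.46 and -8.04 (adjusted p = 0.0006).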

How the data were processed

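Polyadenylated RNA of 4 wild-type adipocyte and 4 wild-type liver libraries was analysed, with 8 further libraries from mice labelled knockout as a second measurement. The deposited files hold raw counts of reads per gene symbol, 1 file a library, which the authors made, per the submitters' processing notes, with bcl2fastq 2.17, STAR 2.5.2b and featureCounts 1.5.0 on build mm10. Which annotation was used, whether strand was read and how multi-mapping reads were handled is not given in the sources used here, so reads of near-identical, overlapping or antisense genes cannot be assigned with certainty. Low counts in the deposited files were mostly even (77.5% of values from 1 to 20), so intervals for counting error were computed on halved counts, and they cover counting error only.

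Counts were analysed in R 4.3.3 with edgeR 4.0.16: genes passing filterByExpr, trimmed mean of M-values scaling (factors 1.195 to 1.36 in adipocytes and 0.786 to 0.808 in liver), and the quasi-likelihood test of tissue with the mouse as a block, adjusted by Benjamini-Hochberg over all tested genes with a threshold of 0.05. The mouse number pairs the libraries because both of a number come from the same animal, per the titles. Libraries of the same mouse did not deviate together, with correlations of -0.112 to 0.0649. The median standard error of a log2 difference was 0.17. A floor of 3 counts, 0.0495 to 0.0663 CPM in adipocyte and 0.0808 to 0.123 CPM in liver libraries, set the lower bound of a fold against a tissue without counts. No pair of libraries of a tissue agreed within sampling noise (chi-square per degree of freedom at least 32.1). Single summary measures and the ratios of gene pairs were compared by exact permutation of the 8 libraries, without the pairing by mouse. With the pairing kept, a permutation over 4 mice cannot pass 0.05. The labels do not say more of how mice were housed or processed, so edgeR p-values measure only how the tissue difference varied among these mice. The fit was tested on simulated data in which most genes were equal between the tissues and mice did not differ. Most genes differ here, so that test does not cover the scaling between tissues or the pairing.

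The gene lists, pairs and members were chosen with earlier results of these data known. Genes named in the text are Trib1, Adipoq and Alb, the 8 genes of highest mean in each tissue, the 15 largest differences in each direction among genes of at least 10 CPM without overlap, up to 4 called members of each list in each direction with at least 1 CPM, the genes of the pairs, the members of the factor and marker lists, and the 8 genes of at least 50 CPM with the largest adjusted p. The text prints those its paragraphs are about, and says where another was chosen after its values were seen. Alternatives were 4 other scalings, 2 other filters, DESeq2 1.42.0, voom in limma 3.58.1, halved counts, a fit of all 16 libraries, a fit without the mouse block, and leaving out each mouse. Gene positions and exon lengths were taken by symbol from GENCODE M21 on GRCm38 (21777 of 23420 symbols matched), and promoter sequences from RefSeq on GRCm38.p6. Some genes named by this rule are not reported here.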

Additional observations from a re-analysis of the deposited data

Results flagged for a closer look

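In 20 of 343 groups of 4 libraries, over the genes named and a few summary measures, 1 library stood far from the other 3 for the size of the group. Chance alone sets about 1 in 20 groups apart in this way. Among the adipocyte libraries, mouse wt_1135 stood apart at 12.8 CPM for C7, 17.7 for Gstm5, 717 for Retn, 491 for Sort1 and 48.1 for Ucp1, and in the share of its counts held by the 100 highest genes, 29.2%. Mouse wt_1136 stood apart at 61.4 CPM for Gys2 and 12.7 for Tfpi, and mouse wt_1153 at 56.4 CPM for Myl1 and 2.33 for Neb. Among the liver libraries, mouse wt_1135 stood apart at 5.76 CPM for Ccnd2, 63.6 for Foxa2 and 1447 for Tat, and mouse wt_1136 at 25906 CPM for Serpina1e. Mouse wt_1138 did so at 1349 CPM for Agt, 9.99 for Cfd and 248 for Plin2, and in the summed traces of adipocyte markers, 13.1 CPM. Mouse wt_1153 did so at 24.6 CPM for Adrb3 and 9758 for Fabp1.

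The tissue difference of 41 of the 211 genes named differed between the wild-type mice and the mice labelled knockout, by the interaction of tissue and genotype in edgeR over all 16 libraries (adjusted p under 0.05). Of all 14898 genes tested for it, 2245 did so, and 838 of the 4029 genes at least 4-fold apart in the wild-type mice. The count is therefore not read as particular to the genes named. The values are the wild-type minus the knockout tissue difference on the log2 scale. Among genes higher in wild-type adipocytes, it was negative for Saa3 (-2.58), Slc2a4 (-1.89), Oxct1 (-1.87), Cd36 (-1.33), Pparg (-1.31), Pdha1 (-1.0), Sort1 (-0.91), Dgat1 (-0.90), Mgst3 (-0.90), Cs (-0.66), Gys1 (-0.65) and Pmvk (-0.54), and it was -1.25 for Klb, which did not differ past the threshold between the wild-type tissues. It was positive for Mat2a (0.87), Gpx3 (1.14), Ucp2 (1.21), Cyp1b1 (1.42), Gbp2 (1.51), Cyp4b1 (1.81), Cdh13 (1.92), Cdh5 (1.92), Vwf (2.0), Ifi27l2a (2.03), Cldn5 (2.08), C7 (2.31), Cyp1a1 (2.99), Thbd (3.26) and Nnat (4.07). Among genes higher in wild-type liver, it was negative for Elovl3 (-4.81), Mup3 (-3.42), Fga (-2.51), Fitm1 (-1.58), Lcn2 (-1.53) and Pygl (-1.14). It was positive for Cpt1a (0.85), Vtn (1.35), Dcn (1.61), Rarres2 (1.85), Fads1 (2.01), Abcc9 (2.41) and Slc27a2 (3.33).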

How the results depend on the processing

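The fit without the mouse as a replicate block called 11154 genes (5817 higher in adipocytes and 5337 in liver) in place of 10759, and the pairing changed the call of Pck1, Adipor1, Tcf7l2, Bcl6, Dbp and Nr1h3 among the 445 named genes. The other scalings, DESeq2 and voom on the same tested genes called 10755 to 11252. Halved counts gave 10487, all 16 libraries in one fit 11473, no filter 11075 and the filter at 10 CPM 7825. It was 9714 to 10509 without single mice, and the genes at least 4-fold higher were 2383 to 2478 in adipocytes and 1806 to 1896 in liver. With only genes of at least 10 CPM in a tissue, 1417 and 1191 genes were at least 4-fold higher in adipocytes and liver, since fewer genes were tested. The difference of 322.75 genes in the concentration of counts was 171.75 without the 10 genes highest in liver and 292 to 340.0 without single mice. All 28 pairs kept their direction under the prior count of 0.5, halved counts and without each mouse.

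Of the 445 named genes, 396 kept direction and call under all alternatives, 34 lost their call under at least 1, 10 gained one and 16 changed sign. On library totals alone the sign changed for Dbp (0.28), Dcn (0.0132), Esrra (0.20), Hsph1 (0.30), Nr1h3 (0.33), Plin2 (0.45), Pygl (0.0372), Tcf7l2 (0.41), Rnpepl1 (0.64) and Sdccag3 (0.64), where that scaling moved the median difference of all tested genes up by 0.65. The others that changed sign were among the 8 abundant genes chosen for the largest adjusted p, all near 0. With DESeq2 size factors in edgeR and in DESeq2 the values were -0.0245 and -0.0245 for Abcf1, -0.0225 and -0.0226 for Cobll1, -0.0244 and -0.0244 for Eif3a, -0.0258 and -0.0258 for Gas5, -0.0245 and -0.0244 for Pdap1, and -0.0233 and -0.0232 for Stau1. With genes of at least 10 CPM they were -0.00478 for Abcf1, -0.00224 for Cobll1, -0.00469 for Eif3a, -0.00667 for Gas5, -0.0048 for Pdap1 and -0.00349 for Stau1. Without the replicate block they were -0.000873 for Abcf1, -0.00321 for Eif3a and -0.0151 for Gas5. Rnpepl1 and Sdccag3 gave 0.00352 and 0.00316 with all 16 libraries, 0.0209 and 0.0206 with no filter, and 0.0529 and 0.0524 with upper quartile scaling. Without single mice the ranges were -0.0658 to 0.0833 for Abcf1, -0.21 to 0.12 for Cobll1, -0.0858 to 0.0888 for Eif3a, -0.13 to 0.0808 for Gas5, -0.0595 to 0.0626 for Pdap1, -0.0692 to 0.0604 for Rnpepl1, -0.0565 to 0.0177 for Sdccag3 and -0.0834 to 0.0497 for Stau1.

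Depth limits folds against genes near 0 counts, which move with single mice. The age of mouse wt_1153 cannot be told apart from that mouse, and without it 10173 genes were called.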
